A study of Mus musculus with 4 samples.

Results

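The guidance genes are the semaphorins, plexins, neuropilins, ephrins, Eph receptors, Slits, Robos, netrins and Unc5 receptors, families named for steering growing axons. Members were taken by gene symbol, as 67 of the 18193 genes that had a probe set with a single symbol. Each gene was represented by 1 probe set. The families were chosen with earlier results of these data known. The data are 4 Affymetrix 3' expression arrays of C2C12, an immortalised mouse myoblast line that fuses into myotubes when serum is lowered. The groups were 2 arrays of cells stably expressing shLSD1, a plasmid-borne short hairpin RNA against LSD1, and 2 arrays of cells stably expressing shControl, a non-targeting hairpin. Both groups were grown in medium with 25 mM glucose, both were under hygromycin B during growth at 750 µg/mL, both were moved from medium with 10% fetal bovine serum to medium with 2% horse serum, and RNA was taken 48 hours after induction. LSD1, encoded by Kdm1a, is a histone demethylase of repressive complexes. The comparison asks which transcripts differ in differentiating cells when it is depleted. The labels name no second selection for either hairpin, so the selected line and the knockdown cannot be told apart. Whether arrays of 1 group came from separate cultures is not in the labels. The p-values here set the difference between groups against a spread of arrays within a group. That spread is drawn partly from the gene's own arrays and partly from a trend with signal over all genes tested, and may be technical only.

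Guidance ligands act on receptors of neighbouring or distant cells and reorganise the actin skeleton. Secreted class 3 semaphorins mostly bind a neuropilin, which holds no signalling domain of its own and passes the signal on through a plexin, whereas Sema3e can bind Plxnd1 directly. Membrane semaphorins bind plexins without a neuropilin. Ephrins and Eph receptors signal at cell contacts and in both directions, netrins bind Dcc, neogenin and Unc5 receptors, and Slits bind Robos. Many of these genes are also active outside the nervous system, and in skeletal muscle several have been linked to axon arrival, to blood vessels and to the behaviour of myoblasts.

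The targeted gene was low in both knockdown arrays. Kdm1a had signals of 922 and 1034 in shLSD1 cells, against 4603 and 4588 in shControl cells (log2 fold change -2.23, SE 0.07, n = 2 and 2, limma adjusted p = 2.89e-05). The 4 arrays had median signals between 67.3 and 69.7 over 45101 probe sets. Over the 44 tested guidance genes, which are not independent replicates, the correlation of log2 signals was 0.982 between the shLSD1 arrays, 0.966 between the shControl arrays and 0.923 to 0.969 across the groups. The cells expressed muscle genes in both groups, at lower levels in the knockdown. Of 6 muscle markers 5 fell and 0 rose, with summed signals of 78827 and 86607 in shLSD1 cells, against 117353 and 115135 in shControl cells. Of 8 neuronal markers, Tubb3, Map2, Nefl and Nefm lay above the signal filter and all 4 rose, with summed signals of 5022 and 4894 in shLSD1 cells, against 2929 and 2781 in shControl cells, while Rbfox3, Snap25, Syp and Elavl3 stayed below it. Of 5 epithelial markers 2 lay above the filter, Cdh1 only through its shLSD1 arrays (153 and 139 in shLSD1 cells, against 60.1 and 51.9 in shControl cells), so no call is read from it. The summed signals of the 5 were 311 and 327 in shLSD1 cells, against 176 and 208 in shControl cells. None of the 6 endothelial markers lay above the filter by its mean. Among them Tek had 66.9 and 109 in shLSD1 cells, against 27.8 and 26.4 in shControl cells. Of the 4 macrophage markers only Csf1r lay above it, at 128 and 84.4 in shLSD1 cells, against 112 and 125 in shControl cells. Of 4 Schwann and glial markers measured only Sox10 did, at 92.15 and 77.96 in shLSD1 cells, against 98.51 and 80.79 in shControl cells. The part of these shifts in the results that follow was not tested. In such bulk samples, fewer cells of a type and less RNA per cell cannot be told apart.

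Of 7 class 3 semaphorin genes measured, 5 were tested and 4 rose in LSD1 knockdown cells (Sema3b, Sema3c, Sema3d and Sema3e). Sema4b, Sema4c and Plxnd1, a receptor gene for Sema3e, rose too, while Ephb3 and the netrin genes Ntn1 and Ntn5 fell. Of the 67 guidance genes, 44 had a mean log2 signal over the 4 arrays above 6.03, a signal of 65.4, and were tested. Of these, 7 rose and 3 fell in shLSD1 cells. Together that is 22.7% of the tested members, against a background of 15.8% of all 10879 genes tested, of which 8.75% rose and 7.09% fell. The shift of the whole set was small, with a median log2 fold change of 0.04 over the tested members and 0.0036 over all genes tested. The arrays of the 2 groups did not overlap for 28 of the 44 members, with 60.1% of all tested genes doing the same, which is a share near the background. Among the 25 tested ligand genes 6 rose and 2 fell, and among the 19 tested receptor genes 1 rose and 1 fell; the difference between ligands and receptors was not tested. The count of members called moved when 1 array was left out, and so did the count over all genes tested. Leaving out either shControl array lowered both counts, so the loss of a call there was not confined to the genes named below. With 1 array left out, that group has no spread of its own, so the spread comes from the other group and the trend over all genes, and the lone array is assumed to vary alike.

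**Figure D1:**
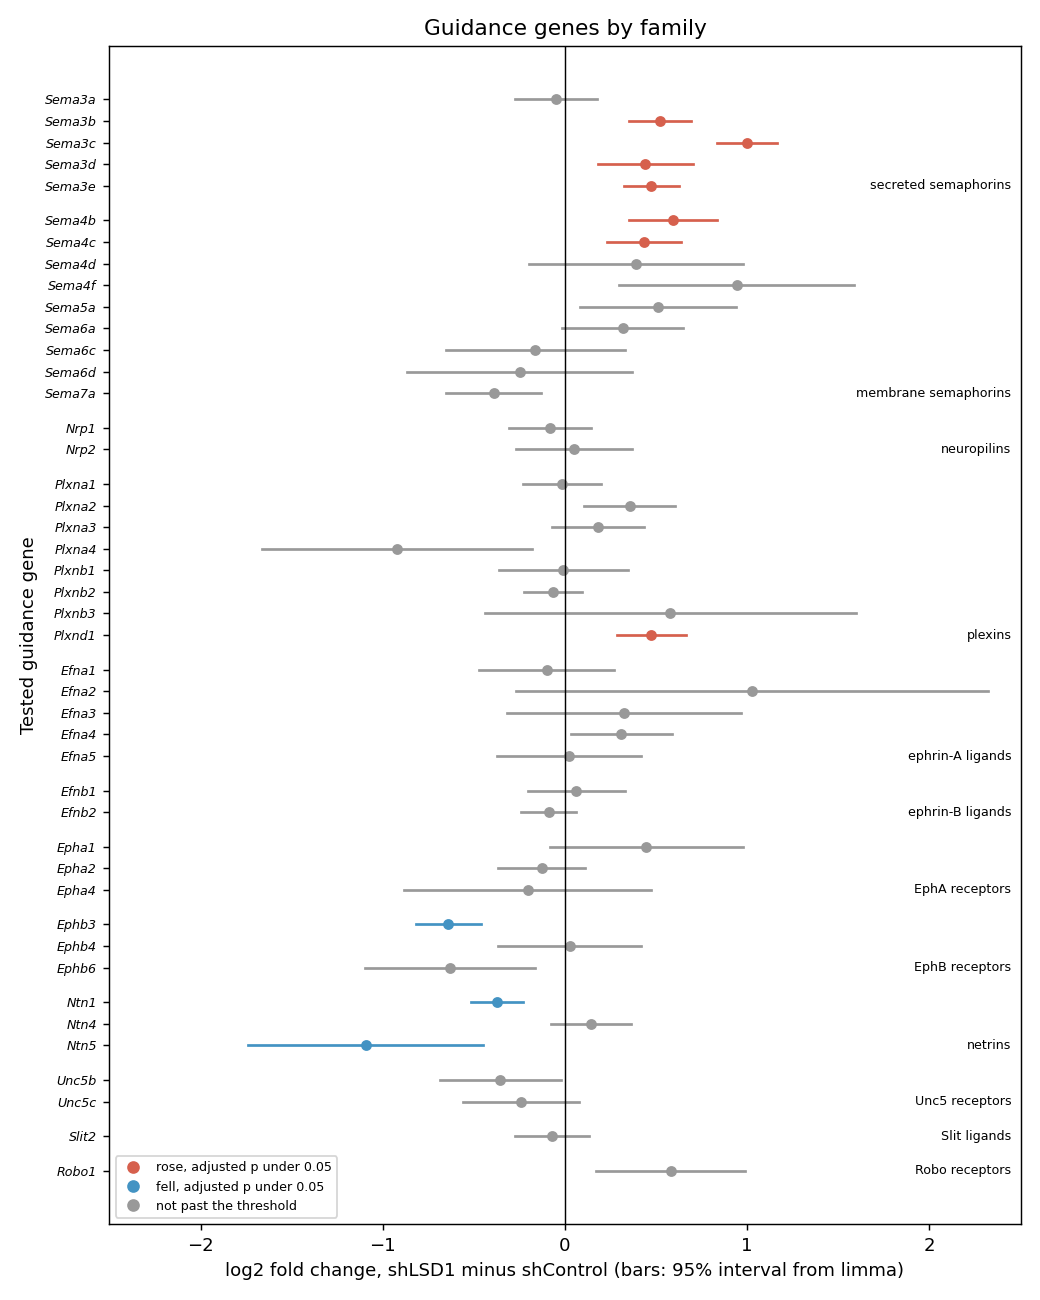
Log2 fold change (shLSD1 minus shControl, x axis) of each of the 44 tested guidance genes, ordered by family from top to bottom, with bars for the 95% interval from limma and colours for the call at an adjusted p of 0.05. Of the 5 secreted semaphorin genes 4 lie right of 0 with intervals that do not reach it, while Sema3a and both neuropilins lie close to 0.

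The promoters of the members with the largest rise and the largest fall past the threshold are shown, since these 2 genes carry the extremes of the result, in the RefSeq version of build GRCm38.p6, as 250 bases before to 50 bases after the start of the gene. Capitals mark matches to CAGCTG and CACCTG, which are forms of the E-box that myogenic factors bind, to GGGCGG, the GC box, and to TATAAA, the TATA box, each searched on both strands. No 2 of these matches overlap. The Sema3c window lies at chr5:17574566-17574865 and the Ntn5 window at chr7:45683772-45684071, both on the plus strand.
Sema3c: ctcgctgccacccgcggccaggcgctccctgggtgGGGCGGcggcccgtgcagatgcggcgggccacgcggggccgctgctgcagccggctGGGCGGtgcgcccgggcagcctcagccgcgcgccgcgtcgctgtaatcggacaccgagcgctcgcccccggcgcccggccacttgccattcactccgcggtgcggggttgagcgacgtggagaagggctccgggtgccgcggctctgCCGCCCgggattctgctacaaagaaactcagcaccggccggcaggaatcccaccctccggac
Ntn5: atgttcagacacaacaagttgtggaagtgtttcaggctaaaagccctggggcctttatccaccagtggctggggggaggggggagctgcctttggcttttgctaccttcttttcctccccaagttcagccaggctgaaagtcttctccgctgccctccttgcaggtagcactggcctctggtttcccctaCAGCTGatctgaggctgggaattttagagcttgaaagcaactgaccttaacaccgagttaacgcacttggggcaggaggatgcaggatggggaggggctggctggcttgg
The Sema3c window is rich in G and C (75.7%, with 42 CpG pairs) and holds 3 GC boxes, whereas the Ntn5 window has 55.3% G and C, 3 CpG pairs and 1 E-box of the form CAGCTG. Over all 32851 promoter windows of the same length the median was 52.7% G and C with 7 CpG pairs. Of the 10 members past the threshold 8 had an entry in the promoter table, the exceptions being Ntn1 and Sema3b. GGGCGG was in 6 of the 8 and in 35.7% of all windows, CAGCTG in 2 of the 8 and in 16.3%, CACCTG in 2 of the 8 and in 20.2%, and TATAAA in 0 of the 8 and in 13.6% of all windows. A member was counted if any of its windows held the match, while the percentages are over single windows of all genes, so the 2 are not alike. These matches are a description of letters.

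Among the secreted class 3 semaphorins, 4 of the 5 tested genes rose and 0 fell, beside 8.75% and 7.09% of all genes tested. The median log2 fold change of these 5 was 0.47, and 2 more genes stayed below the signal filter. Sema3c, a ligand that acts through either neuropilin and takes part in the development of the cardiac outflow tract, had signals of 5550 and 6293 in shLSD1 cells, against 2867 and 3055 in shControl cells. Both knockdown arrays thus lay far above both control arrays, at a fold of 2.00 (log2 0.998, SE 0.07, limma adjusted p = 2.48e-04). A second Sema3c probe set gave 591 and 714 in shLSD1 cells, against 324 and 306 in shControl cells, a log2 fold change of 1.04 (SE 0.12). The 2 probe sets of Sema3c thus gave a rise of like size.

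Sema3b, a ligand described as a tumour suppressor in human lung, had signals of 1137 and 1140 in shLSD1 cells, against 789 and 796 in shControl cells. The groups were tightly separated, with a log2 fold of 0.52 (SE 0.07, limma adjusted p = 3.37e-03). Its other probe sets measured 0.75 and 0.23. Sema3e, which guides vessels and axons through Plxnd1, had signals of 3200 and 3088 in shLSD1 cells, against 2376 and 2156 in shControl cells (log2 0.47, SE 0.07, limma adjusted p = 3.22e-03). Its 3 other probe sets were also higher in the knockdown, at 0.46, 0.37 and 0.22. Sema3d, which is active in vessels and heart, had signals of 2516 and 3186 in shLSD1 cells, against 2208 and 1971 in shControl cells (log2 0.44, SE 0.11, limma adjusted p = 0.0352). The shLSD1 arrays of Sema3d differed more between themselves than those of Sema3e did. Its call was lost without shControl replicate 1 (log2 0.52, limma adjusted p = 0.0957) and without shControl replicate 2 (0.36, limma adjusted p = 0.209), and its second probe set measured 0.47.

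Sema3a, the founding repulsive ligand of the class, which in mouse and rat muscle is made by activated satellite cells, was level between the groups. Its signals were 913 and 827 in shLSD1 cells, against 842 and 960 in shControl cells, and the groups overlapped. The log2 fold change was -0.05 (95% interval -0.27 to 0.18, limma adjusted p = 0.771), and the other 2 probe sets measured 0.03 and -0.01. That interval leaves out the rises measured for Sema3b, Sema3c, Sema3d and Sema3e, although the differences between these genes were not themselves tested. Sema3f and Sema3g stayed below the signal filter and were not tested. A probe set of Sema3f of the type prone to cross-hybridisation lay above it, with 140 and 239 in shLSD1 cells, against 414 and 303 in shControl cells (log2 -0.95, SE 0.26, limma adjusted p = 0.0539 with every probe set tested). With that type admitted when choosing 1 probe set per gene, Sema3f passed as a fall (limma adjusted p = 0.0497).

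**Figure D2:**
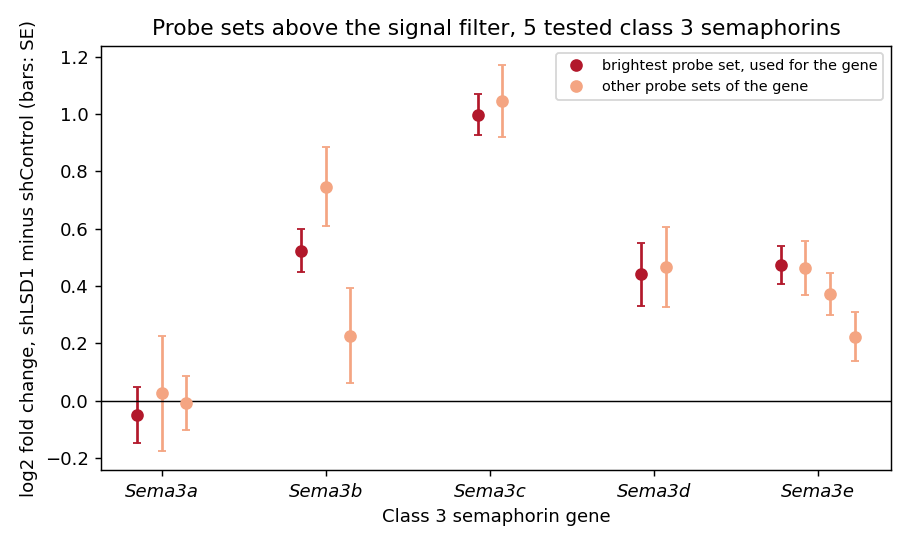
Log2 fold change (shLSD1 minus shControl, y axis) of each probe set above the signal filter for the 5 tested class 3 semaphorin genes, with bars for 1 SE. Every probe set of Sema3b, Sema3c, Sema3d and Sema3e lies above 0, and the 3 probe sets of Sema3a lie between -0.05 and 0.03.

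Sema3d, Sema3a, Sema3e and Sema3c stand in this order on chromosome 5, whereas Sema3b is on chromosome 9. Their neighbours were looked up after the values of the semaphorins were seen. The annotation lists 22 protein-coding genes from Sema3d to Sema3c, both included, of which 7 were tested. The 3 tested genes between them that are not semaphorins measured -0.35 for Pclo, a presynaptic scaffold gene, -0.04 for Cacna2d1, a calcium channel subunit gene, and -0.34 for Hgf, the hepatocyte growth factor gene, with limma adjusted p = 0.220, 0.643 and 0.668. Hgf had signals of 174 and 59.0 in shLSD1 cells, against 139 and 117 in shControl cells, so its arrays differed more within the knockdown than between the groups. Cd36, the next protein-coding gene past Sema3c, fell, at 215 and 241 in shLSD1 cells, against 503 and 522 in shControl cells (log2 -1.17, limma adjusted p = 1.09e-03). Along this stretch the genes that rose were the 3 semaphorins Sema3d, Sema3e and Sema3c, with Sema3a among them level and the next gene lower.

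**Figure D3:**
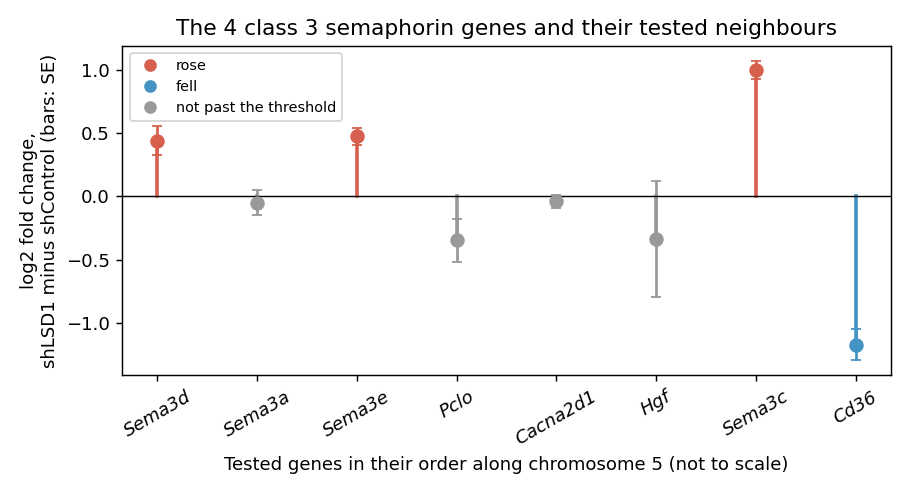
Log2 fold change (shLSD1 minus shControl, y axis) of the tested genes from Sema3d to Cd36 in their order along chromosome 5, which is not to scale, with bars for 1 SE. Sema3d, Sema3e and Sema3c lie at 0.44, 0.47 and 0.998, the genes between them below 0, and Cd36 at -1.17.

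Among the membrane semaphorins, 2 of 9 tested genes rose and 0 fell, beside 8.75% and 7.09% of all genes tested. The other 7 did not pass the test, the median was 0.39, and 4 more genes stayed below the filter. Sema4c, a ligand of Plxnb2 that in mouse myoblasts has been linked to terminal differentiation, had signals of 1206 and 1265 in shLSD1 cells, against 855 and 976 in shControl cells. The groups were apart, with a log2 fold of 0.44 (SE 0.09, limma adjusted p = 0.0143), and leaving out shControl replicate 1 ended the call (0.34, limma adjusted p = 0.116). Sema4b, another transmembrane semaphorin, had signals of 665 and 606 in shLSD1 cells, against 438 and 405 in shControl cells (log2 0.59, SE 0.10, limma adjusted p = 8.87e-03). Its call was lost without shControl replicate 2 (0.53, limma adjusted p = 0.0796), and its second probe set, below the filter, measured -0.05.

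Sema4f measured 110 and 155 in shLSD1 cells, against 62.2 and 74.6 in shControl cells (log2 0.94, SE 0.28, limma adjusted p = 0.0584), and its other probe set, of the type prone to cross-hybridisation, gave 0.68. It measured 1.19 without shLSD1 replicate 1 and 0.70 without shLSD1 replicate 2. Sema5a, which carries thrombospondin repeats, measured 606 and 404 in shLSD1 cells, against 358 and 338 in shControl cells (log2 0.51, SE 0.18, limma adjusted p = 0.105). The log2 fold change of Sema5a was 0.22 without shLSD1 replicate 1 and 0.80 without shLSD1 replicate 2. Both genes had higher values in the knockdown with a spread between arrays too wide for the test. Sema7a, which is anchored to the membrane by a lipid and binds integrins, is named after its value was seen. It pointed the other way, with 849 and 699 in shLSD1 cells, against 954 and 1070 in shControl cells (log2 -0.39, SE 0.11, limma adjusted p = 0.0542). Its adjusted p in limma was 0.0379 with median centring, 0.0475 after quantile normalization and 0.0484 with a robust variance. Its log2 fold change was -0.53 without shLSD1 replicate 1, the knockdown array nearer the controls.

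The neuropilin genes, whose products bind class 3 semaphorins and vascular endothelial growth factor, had overlapping groups. Nrp1 had signals of 1615 and 1359 in shLSD1 cells, against 1645 and 1492 in shControl cells (log2 -0.08, 95% interval -0.30 to 0.14, limma adjusted p = 0.623). Nrp2 had signals of 2003 and 1468 in shLSD1 cells, against 1563 and 1753 in shControl cells (log2 0.05, 95% interval -0.27 to 0.37, limma adjusted p = 0.842). The log2 fold change of Nrp2 was -0.17 without shLSD1 replicate 1 and 0.28 without shLSD1 replicate 2. Neither gene was shown to differ with all 4 arrays.

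Of 8 tested plexin genes 1 rose and 0 fell, beside 8.75% and 7.09% of all genes tested, with a median of 0.09. The gene that rose was Plxnd1, the receptor of Sema3e, with 1331 and 1454 in shLSD1 cells, against 1045 and 960 in shControl cells. The log2 fold was 0.47 (SE 0.08, limma adjusted p = 8.08e-03), close to that of Sema3e. Leaving out shControl replicate 2 ended the call (0.41, limma adjusted p = 0.0793). Plxna2, named after its value was seen, measured 632 and 748 in shLSD1 cells, against 547 and 529 in shControl cells (log2 0.35, SE 0.11, limma adjusted p = 0.0642). It measured 0.48 without shLSD1 replicate 1, the knockdown array nearer the controls. Plxna4 measured 72.3 and 46.1 in shLSD1 cells, against 120 and 99.7 in shControl cells (log2 -0.92, SE 0.32, limma adjusted p = 0.0935), and lay above the filter only by its control arrays. It measured -1.25 without shLSD1 replicate 1 and -0.60 without shLSD1 replicate 2. Plxnb3 measured 239 and 323 in shLSD1 cells, against 109 and 318 in shControl cells (log2 0.58, limma adjusted p = 0.418). Its result rested on shControl replicate 1, since it measured -0.20 without that array and 1.35 without shControl replicate 2. The other 4 plexin genes measured between -0.06 for Plxnb2, the receptor of Sema4c, and 0.18 for Plxna3, and Plxnc1 stayed below the filter.

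**Figure D4:**
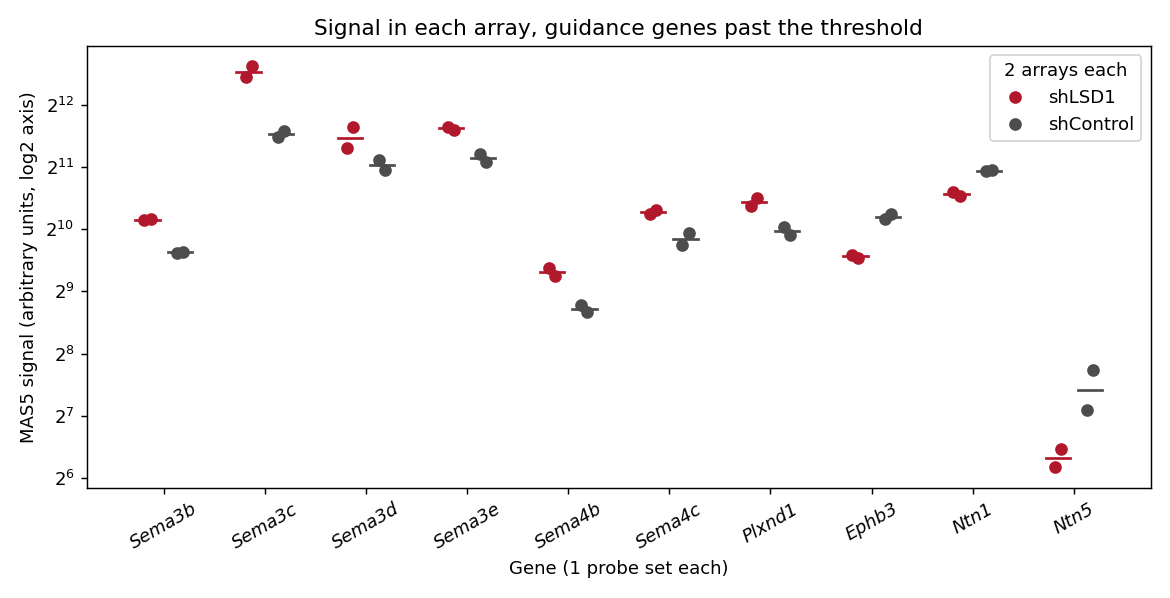
MAS5 signal (y axis, log2 scale) of the 10 guidance genes past the threshold in each array, with shLSD1 points left of shControl points and a bar for the mean of the log2 signals of the 2 arrays. The groups do not overlap for any of the 10 genes. These were picked by passing the test, and 60.1% of all tested genes have groups that do not overlap. Sema3c lies at 5550 and 6293 in shLSD1 cells, against 2867 and 3055 in shControl cells.

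In the ephrin and Eph families, 1 of 13 tested genes passed the threshold, beside 15.8% of all genes tested. The gene that fell was Ephb3, a receptor tyrosine kinase for B-type ephrins that keeps cell populations apart in the gut. It had signals of 769 and 747 in shLSD1 cells, against 1147 and 1214 in shControl cells. The 4 values fell in 2 tight pairs, with a log2 fold of -0.64 (SE 0.08, limma adjusted p = 1.77e-03). Ephb6, a family member without kinase activity, measured 764 and 495 in shLSD1 cells, against 846 and 1075 in shControl cells (log2 -0.63, SE 0.20, limma adjusted p = 0.0724). The log2 fold change of Ephb6 was -0.95 without shLSD1 replicate 1 and -0.32 without shLSD1 replicate 2. Its change was as large as that of Ephb3 with a wider spread between arrays. Ephb4, known for its part in setting vein identity, had overlapping groups at 266 and 208 in shLSD1 cells, against 223 and 239 in shControl cells (log2 0.03, limma adjusted p = 0.938), and Ephb1 stayed below the filter.

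Of 9 EphA receptor genes 3 were tested and none of these passed. Epha1 measured 115 and 128 in shLSD1 cells, against 86.4 and 92.3 in shControl cells (log2 0.45, SE 0.23, limma adjusted p = 0.233). Epha4, a receptor of motor axons, measured 68.1 and 60.6 in shLSD1 cells, against 76.6 and 71.6 in shControl cells (log2 -0.21, limma adjusted p = 0.680). Its mean log2 signal was 6.005 in shLSD1 cells, under the filter, and 6.211 in shControl cells. Its probe sets at -0.86 and -0.69 also lay above the filter only by their control arrays. These values came from dim probe sets and have wide errors.

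None of the 7 tested ephrin genes passed. Among the A-type ephrins, which are anchored by a lipid, Efna2 had 142 and 245 in shLSD1 cells, against 175 and 48.0 in shControl cells (log2 1.02, SE 0.56, limma adjusted p = 0.260). The size of this value came from shControl replicate 2, since it was 0.09 without that array and 1.96 without shControl replicate 1. Efna3 measured 0.32 (SE 0.28, limma adjusted p = 0.478). Among the B-type ephrins, which span the membrane, Efnb2 had overlapping groups, at 2043 and 1912 in shLSD1 cells, against 2166 and 2043 in shControl cells (log2 -0.09, 95% interval -0.24 to 0.06, limma adjusted p = 0.401). Efnb1 measured 0.06 (95% interval -0.21 to 0.33, limma adjusted p = 0.757). Efnb2 and Efnb1 can bind Ephb3, and neither was shown to differ while that receptor fell.

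Among the netrin genes, 2 of 3 tested fell and 0 rose, beside 7.09% and 8.75% of all genes tested. Netrin-1 (Ntn1), a secreted cue that attracts or repels axons according to the receptor and has been linked to myotube formation in mouse cells, had signals of 1551 and 1487 in shLSD1 cells, against 1951 and 1977 in shControl cells. The groups were apart by a small step, with a log2 fold of -0.37 (SE 0.06, limma adjusted p = 7.12e-03). A dim second probe set gave 101 and 83.1 in shLSD1 cells, against 91.2 and 62.7 in shControl cells (log2 0.27, SE 0.29), and the average over both probe sets was -0.05. Its call ended without shControl replicate 1 (-0.38, limma adjusted p = 0.0664) and without shControl replicate 2 (-0.36, limma adjusted p = 0.0775).

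Ntn5, a further netrin gene, had 72.1 and 88.3 in shLSD1 cells, against 136 and 213 in shControl cells (log2 -1.09, SE 0.28, limma adjusted p = 0.0353). It was the largest fall among the members past the threshold. Without shControl replicate 1, shControl replicate 2 or shLSD1 replicate 1 its adjusted p in limma was 0.0521, 0.242 or 0.0699. Ntn4, a netrin of basement membranes, measured 877 and 886 in shLSD1 cells, against 860 and 741 in shControl cells (log2 0.14, limma adjusted p = 0.351).

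Of the 4 Unc5 genes, the netrin receptors that lie in the set, 2 were tested and neither passed. Unc5a and Unc5d stayed below the filter and were not tested. Unc5b, which mediates repulsion from netrin-1, had 958 and 697 in shLSD1 cells, against 1003 and 1088 in shControl cells (log2 -0.36, SE 0.14, limma adjusted p = 0.137). The log2 fold change of Unc5b was -0.59 without shLSD1 replicate 1 and -0.13 without shLSD1 replicate 2. A second Unc5b probe set gave -0.34. Unc5c measured 266 and 235 in shLSD1 cells, against 297 and 295 in shControl cells (log2 -0.24, SE 0.14, limma adjusted p = 0.276). Neither receptor gene passed with all 4 arrays. Their groups did not overlap, as was so for 60.1% of all tested genes.

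In the Slit and Robo families 2 of 7 genes were tested. Slit2, a secreted repellent, had 2195 and 1840 in shLSD1 cells, against 2063 and 2159 in shControl cells (log2 -0.07, 95% interval -0.28 to 0.13, limma adjusted p = 0.639), so its groups overlapped. Its receptor gene Robo1 had 316 and 417 in shLSD1 cells, against 267 and 221 in shControl cells (log2 0.58, SE 0.18, limma adjusted p = 0.0630). The log2 fold change of Robo1 was 0.78 without shLSD1 replicate 1 and 0.38 without shLSD1 replicate 2. Robo1 did not pass with all 4 arrays.

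The 23 members below the filter had signals between 0.599 and 69.1 in single arrays and were not tested. Of these, 8 had groups that did not overlap, against 35.6% of all genes below the filter, and 4 of the 8 also differed by at least 1 on the log2 scale. Slit1 was listed at 44.6 and 30.6 in shLSD1 cells, against 8.64 and 5.31 in shControl cells. Epha6 was listed at 13.5 and 13.8 in shLSD1 cells, against 3.27 and 2.52 in shControl cells. Unc5a was listed at 11.5 and 8.73 in shLSD1 cells, against 36.8 and 41.7 in shControl cells, and Robo2 at 9.79 and 0.599 in shLSD1 cells, against 15.4 and 15.2 in shControl cells. All of these signals are in the range where MAS5 values are noisy, and no fold is given for them.

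**Figure D5:**
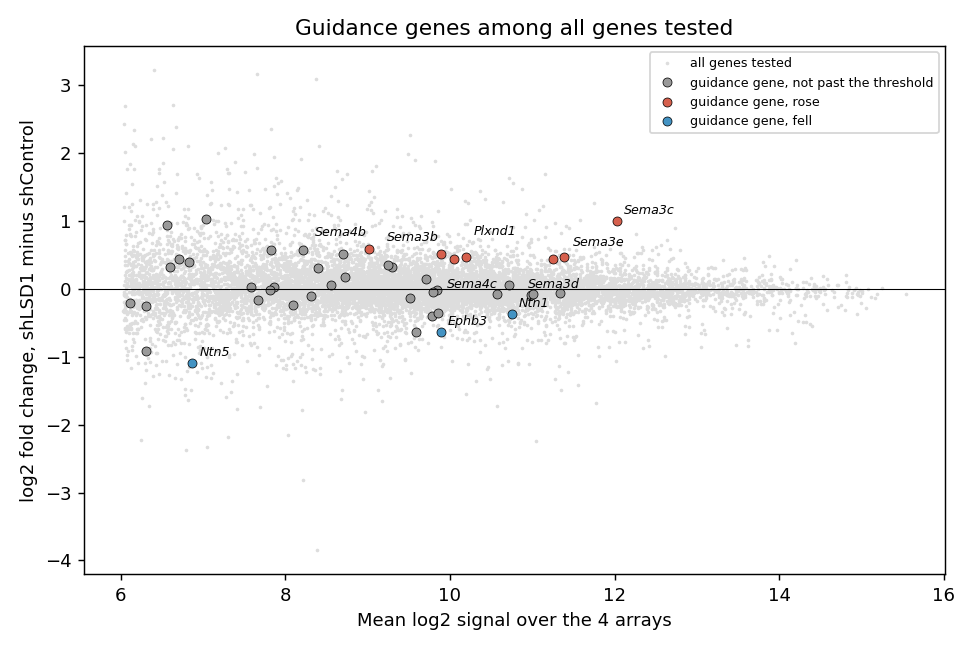
Log2 fold change (shLSD1 minus shControl, y axis) against the mean log2 signal over the 4 arrays (x axis) for the 10879 genes tested (light grey) and the 44 tested guidance genes (larger points). Sema3c, at 0.998, has the largest rise among the members past the threshold, and Ntn5, at -1.09, the largest fall.

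Other genes of these pathways, from a list of co-receptors and intracellular partners, moved in both directions. The list was chosen with earlier results of these data known, so its share of called genes is a description only. Of 83 genes written, 79 were measured and 64 tested, and of the tested 5 rose and 9 fell, which is 21.9% against the background of 15.8%, with a median of 0.02. L1cam, an adhesion molecule that joins neuropilin-1 in the response to Sema3a, had 1492 and 1715 in shLSD1 cells, against 325 and 338 in shControl cells (log2 2.27, SE 0.10, limma adjusted p = 3.55e-05). It thus rose 4.82-fold while Nrp1 and Sema3a had overlapping groups. Dpysl2, a cytoplasmic mediator of the semaphorin response, rose by 0.38, Limk1, a kinase that restrains actin severing, by 0.66, and Adam10, a protease that cuts ephrins from the cell surface, by 0.32 (limma adjusted p = 3.22e-03, 7.39e-03 and 7.64e-03). With each gene's probe sets averaged, Dpysl2 measured 0.19, Limk1 0.39 and Adam10 0.40, and none of these passed (limma adjusted p = 0.484, 0.420 and 0.154).

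Enah, an actin regulator downstream of Robo and netrin receptors, had 3538 and 4143 in shLSD1 cells, against 6795 and 7192 in shControl cells (log2 -0.87, SE 0.08, limma adjusted p = 6.45e-04). Tiam1, a Rac exchange factor that binds EphB receptors, had 443 and 421 in shLSD1 cells, against 825 and 747 in shControl cells (log2 -0.86, SE 0.10, limma adjusted p = 1.47e-03). Both fell to clearly separate levels. Rasa1, a Ras inhibitor recruited by Eph receptors, fell by 0.39, and Trio, an exchange factor of the netrin pathway, by 0.35 (limma adjusted p = 3.73e-03 and 5.59e-03). With its probe sets averaged Trio measured -0.23 and did not pass (limma adjusted p = 0.357). Without the intensity trend Dpysl2, Adam10, Rasa1 and Trio did not pass (limma adjusted p = 0.0678, 0.0797, 0.064 and 0.07). Without shControl replicate 1 the calls of Dpysl2, Limk1, Adam10, Rasa1 and Trio were lost (limma adjusted p = 0.0544, 0.0622, 0.0730, 0.0573 and 0.0760), while their log2 fold changes were 0.38, 0.55, 0.33, -0.38 and -0.33. Without shControl replicate 2 those of Dpysl2, Adam10 and Trio were lost (limma adjusted p = 0.0534, 0.0883 and 0.0550), at log2 fold changes of 0.38, 0.31 and -0.37. The count of called genes on this list fell when either shControl array was left out, as did the count over all genes tested. Neo1, the gene of the netrin receptor neogenin, measured 0.10 (limma adjusted p = 0.450), and Dcc 0.06 (limma adjusted p = 0.934); both are named after their values were seen.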

How the data were processed

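The deposited values are signal intensities per probe set on a linear scale, which the authors made with MAS5 and Affymetrix Expression Console per the submitters' processing notes, with versions not given in the sources used here. Biotin-labelled RNA came from 250 ng of total RNA, per the labels' protocols. In each array the mean after trimming 2% at each end was 500.0, so each array had been scaled by 1 factor, which leaves differences in the shape of the distributions. On a log scale, low MAS5 signals vary widely between arrays. Signals under 1 were set to 1 before log2. Of 45101 probe sets, 34945 had 1 gene symbol, 932 several, 9160 none and 64 were controls, by the annotation table used. Ephb2 was not analysed here. For each gene the brightest probe set was used, avoiding the type prone to cross-hybridisation (_x_at), and genes with a mean log2 signal above the median of all non-control probe sets were tested. The groups were compared by limma 3.58.1 under R 4.3.3 in a two-sided test with an intensity trend and 7.54 degrees of freedom in all. Adjusted p-values are Benjamini-Hochberg over 10879 genes, at a threshold of 0.05. Figures used matplotlib 3.10.9.

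The members, the lists and the tests were chosen with earlier results of these data known. The genes named were Kdm1a, every member past the threshold, up to 2 others per family with the largest change, members below the filter whose groups were apart by at least 1 on the log2 scale, and the 8 pathway genes with the smallest adjusted p among those past the threshold. The test was tried on simulated data first. Alternatives changed the probe set rule, filter, floor, scaling, variance model, threshold, replicate block and arrays used. The number of arrays limits the precision.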

Additional observations from a re-analysis of the deposited data

How the results depend on the processing

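Of the 10 members past the threshold, Sema3b, Sema3c and Ephb3 kept the call under each of the 15 alternatives run for each, and none of the 10 changed sign. Ephb3, Plxnd1, Sema4c and Ntn5 have 1 probe set each, so another probe set rule could not change their fold. The count of members called was 10, and 16 at a threshold of 0.1, 6 with each gene's probe sets averaged, 4 without the intensity trend and 6 to 17 with 1 array left out. For all genes the count was 1723, and 2596 at 0.1, 763 at 0.01, 901 with the mean of probe sets, 637 without the trend and 580 to 2192 with 1 array left out. For the other pathway genes it was 14, and 8 at 0.01, 5 with the mean of probe sets, 6 without the trend and 3 to 18 with 1 array left out. The median of the members was 0.04, and -0.0151 with the stricter filter at log2 8.91 and -0.0103 to 0.129 with 1 array left out. With median centring 874 genes rose and 927 fell, against 952 and 771, and 7 members rose and 4 fell.

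Without the trend the calls of Ntn1, Ntn5, Plxnd1, Sema3d, Sema3e and Sema4c were lost (limma adjusted p between 0.0559 and 0.160), and with the mean of probe sets those of Ntn1, Ntn5, Sema3d and Sema4b. With no filter those of Ntn5 and Sema3d were lost. Some members near 0 that did not pass changed sign. With every probe set tested, 1 dim Efnb2 probe set measured 0.467, while its others measured -0.09, -0.13 and -0.18. For Nrp2, 1 probe set measured -0.142, with the others at 0.05, -0.140 and 0.008. With the mean of probe sets Efnb2 measured 0.0172 and Nrp2 -0.0556, and Ephb4 measured -0.00944 after quantile normalization. With 1 array left out the sign changed for Efnb1 (-0.0101 to 0.135), Ephb4 (-0.15 to 0.201), Nrp1 (-0.205 to 0.0441), Nrp2 (-0.173 to 0.275), Plxnb3 (-0.195 to 1.35), Sema3a (-0.144 to 0.0452) and Slit2 (-0.198 to 0.0565), each given as its range over the 4 arrays. The cause of these changes was not tested. The replicate numbers are shared by the labels only: the correlation of same-numbered arrays' deviations was 0.00287. With the replicate number as a block 17 members were called, 11 higher and 6 lower, including the 10. The same block raised the count over all 10879 genes tested from 1723 to 2220.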
